A study of Mus musculus with 12 samples.

Results

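The 9 genes described here encode the first steps of noradrenaline signalling in brown fat. They are 3 adrenergic receptors (Adrb1, Adrb3 and Adra1a), the alpha subunit of the stimulatory G protein (Gnas), and 5 subunits of protein kinase A (the catalytic Prkaca and Prkacb, and the regulatory Prkar1a, Prkar2a and Prkar2b). They were taken by name from a table of read counts for 38924 genes, and all 9 were measured and passed the filter on low counts. The tissue was interscapular brown fat. The mice were wild type, of strain C57BL/6J, and each lived at 1 ambient temperature for 4 weeks, from the age of 10 weeks to sampling at 14 weeks. One library was sequenced per mouse, with 4 mice at 30 °C (labelled thermoneutral), 4 at 22 °C and 4 at 6 °C. No genotype other than wild type was studied, and the groups differ in the labels only by temperature.

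Noradrenaline released by sympathetic nerves binds beta-adrenergic receptors on the brown adipocyte, which act through the stimulatory G protein to raise cyclic AMP. Cyclic AMP binds the regulatory subunits of protein kinase A and frees the catalytic subunits, which phosphorylate lipid droplet proteins and the transcription factor CREB. The beta3 receptor is known as the main beta receptor of rodent adipocytes, the alpha1 receptors act instead through Gq and calcium, and the type II beta regulatory subunit is known as the main regulatory subunit of adipose tissue.

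CREB binds the cyclic AMP response element TGACGTCA or its shorter form TGACG, and these letters were searched in RefSeq promoters of build GRCm38.p6 (250 bases before to 50 after each start). The search covered both strands, and each TGACGTCA also holds TGACG. Of 32851 promoters, 588 (1.79%) held TGACGTCA and 6837 (20.8%) held TGACG. Counted by gene, 549 of 27025 genes (2.03%) held TGACGTCA and 6228 (23%) held TGACG in at least 1 promoter. Promoters were matched for 7 of the 9 genes, Adrb3 and Adra1a being the other two, with 1 to 6 promoters a gene. TGACGTCA was found for Prkar1a, in 2 of its 6 promoters, which overlap at 1 copy. TGACG was found in at least 1 promoter of 6 of the 7 genes, and Prkar2b had neither in its 2 promoters. The windows below show the full element and, for each other gene with a match, the copy or copies described. Each is 30 bases, written 5′ to 3′ on the strand of the gene, with the matched letters in capitals (CGTCA is TGACG read on the opposite strand).

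Prkar1a: ggccagagcgaggcgcatTGACGTCAgcag
Prkaca, nearer copy: gggctgcgggggCGTCAcggacagaggact
Prkaca, farther copy: gtctgcaactcgCGTCActcatccaggagc
Prkar2a: cgcggccgcgtgCGTCAcaacccgggcgcc
Prkacb: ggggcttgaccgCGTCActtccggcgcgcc
Gnas: aagaggttggggCGTCAtcaggctggttag
Adrb1: gctgcgggagccTGACGcgcggccccgggg

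With the start of transcription as position 1, the Prkar1a element begins at position 39 of its start, in the window chr11:109650882-109650911 on the plus strand. The Prkaca copies begin at positions -6 and -120 of 1 start, in the windows chr8:83972960-83972989 and chr8:83972846-83972875 on the plus strand. The Prkar2a copy begins at position -4, in chr9:108692127-108692156 on the plus strand. The Prkacb copy begins at position -102, in chr3:146813031-146813060 on the minus strand. The Gnas copy shown begins at position -38 of 1 start, in chr2:174327699-174327728 on the plus strand. A further Gnas copy, not shown, begins at position -216 of another start, and 3 of the 4 Gnas promoters held TGACG. Prkar1a also held TGACG, not shown, at position -151 of 1 start and -100 of another. The Adrb1 copy begins at position -90, in chr19:56722015-56722044 on the plus strand. A match describes these letters only, and binding of any factor was not measured.

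Libraries held 18290162 to 32513051 counts each, but 22 °C mouse 3 held 86438386 and has a library code apart from the others. Of the 30 °C libraries, 2 carry that group's letter but numbers that match no mouse of the group, so they were placed at 30 °C by the letter. They are named mice A and B. Their library codes, 7519 and 7520, follow those of 30 °C mice 1 and 2, 7517 and 7518, but a code states no temperature. Each comparison with 30 °C was therefore also run without mice A and B. The 8 brown adipocyte markers were present in every library, with a summed level of 12015 to 14027 CPM (counts scaled to library size) at 30 °C, 18125 to 21171 at 22 °C and 24475 to 26576 at 6 °C. Of these 8, 6 rose and none fell at 22 °C against 30 °C, and 1 rose (Ucp1) and 3 fell (Adipoq, Cidea and Cox8b) at 6 °C against 22 °C. At 6 °C against 30 °C, 4 rose and 1 fell (Adipoq, log2 -0.78, adjusted p = 2.77e-05). The sum includes Ucp1, which itself rose in each comparison and averaged 1469 CPM at 30 °C, 3373 at 22 °C and 10439 at 6 °C. Summed skeletal muscle markers (12 genes) ranged from 923 to 5039 CPM at 30 °C, 913 to 3578 at 22 °C and 9.98 to 1810 at 6 °C, with none of them called in any comparison. Summed macrophage markers (9 genes) ranged from 495 to 1606 CPM at 30 °C, with the 2 highest values in mice A and B, from 131 to 186 at 22 °C and from 213 to 435 at 6 °C. Fibroblast markers (8 genes) ranged from 2596 to 4996 CPM at 30 °C, 1011 to 1480 at 22 °C and 821 to 1025 at 6 °C. Endothelial markers (8 genes) ranged from 1222 to 1499, 874 to 971 and 1011 to 1126 CPM at 30, 22 and 6 °C, and smooth muscle and pericyte markers (9 genes) from 909 to 1145, 709 to 804 and 708 to 752. T cell markers ranged from 6.07 to 9.92, 1.37 to 2.65 and 1.1 to 2.14 CPM, and Schwann cell and nerve markers from 104 to 153, 135 to 170 and 135 to 144. With the mean log2 CPM of the skeletal muscle markers as a covariate, 6 of the 7 calls among the 9 genes at 6 °C against 30 °C remained, and Gnas was lost (log2 0.74, adjusted p = 0.0798). The part of the other cell types in the results below was not tested. In bulk tissue, fewer cells of a type and less RNA per cell cannot be told apart.

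Of the 9 genes, 7 rose at 6 °C against 30 °C and none fell, by edgeR's quasi-likelihood test at an adjusted p under 0.05 over all 14870 genes tested. In that comparison 56.8% of all tested genes were called, 25.3% as higher and 31.5% as lower. At 22 °C against 30 °C, 4 of the 9 rose (Adrb3, Adra1a, Prkaca and Prkar2b), against 44.6% of all genes called, 21.8% higher and 22.8% lower. At 6 °C against 22 °C, 2 of the 9 rose (Prkar1a and Prkar2a), against 34.2% of all genes called, 16.9% higher and 17.4% lower. The median log2 fold change of the 9 genes was 0.40, 0.42 and 0.07 in these comparisons, beside -0.11, -0.02 and -0.03 over all tested genes. The comparisons share samples, so they are given side by side and not as independent results. The warmer step (30 to 22 °C) and the colder step (22 to 6 °C) were compared by subtracting the first log2 fold change from the second. This difference was called for 4 of the 9 genes, against 29.3% of all genes. Adra1a and Prkaca moved less in the colder step, and Prkar1a and Prkar2a moved more in it.

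**Figure D1:**
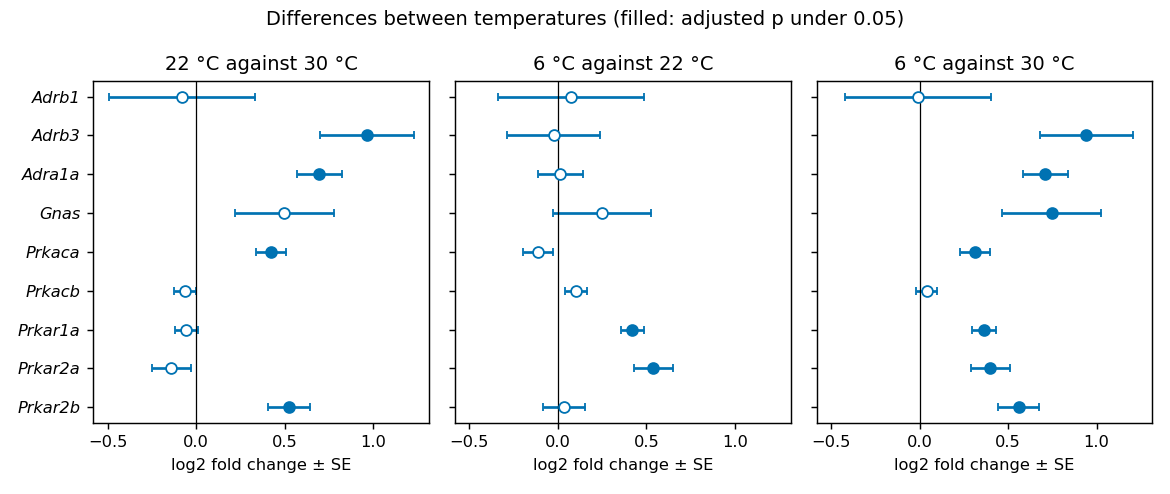
Log2 fold changes of the 9 genes between temperatures, 1 panel per comparison. Points are estimates from 4 mice per group, bars are standard errors, and filled points passed an adjusted p under 0.05. Adrb3, Adra1a, Prkaca and Prkar2b are filled at 22 °C against 30 °C, and Prkar1a and Prkar2a at 6 °C against 22 °C.

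Per kilobase of exon, Prkar2b was the most abundant of the 9 transcripts at every temperature, with a mean of 309 CPM per kilobase at 30 °C, 445 at 22 °C and 456 at 6 °C. At 30 °C it was followed by Prkaca at 112, Adrb3 at 67.6, Prkar1a at 57.7, Gnas at 18, Adrb1 at 10.5, Prkacb at 9.09, Adra1a at 7.11 and Prkar2a at 4.28 CPM per kilobase. The ranges of neighbours overlapped between Adrb3 and Prkar1a, and from Gnas down to Adra1a. At 6 °C the order was Prkaca at 138, Adrb3 at 130, Prkar1a at 74.2, Gnas at 30.3, Adra1a at 11.6, Adrb1 at 10.4, Prkacb at 9.35 and Prkar2a at 5.64 CPM per kilobase. There the ranges of Prkaca and Adrb3 overlapped, and the range of Adrb1 overlapped those of Adra1a and Prkacb, which did not overlap each other. Exon length here counts every annotated exon of a gene, over all its transcripts. It was 11186 bases for Gnas, 8772 for Prkacb and 2488 for Prkaca, and single transcripts can be shorter. The order above, and the levels of the shares and ratios below, depend on this length. Without the division, Gnas averaged 202 CPM, Prkacb 79.8 and Prkaca 277 at 30 °C.

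**Figure D2:**
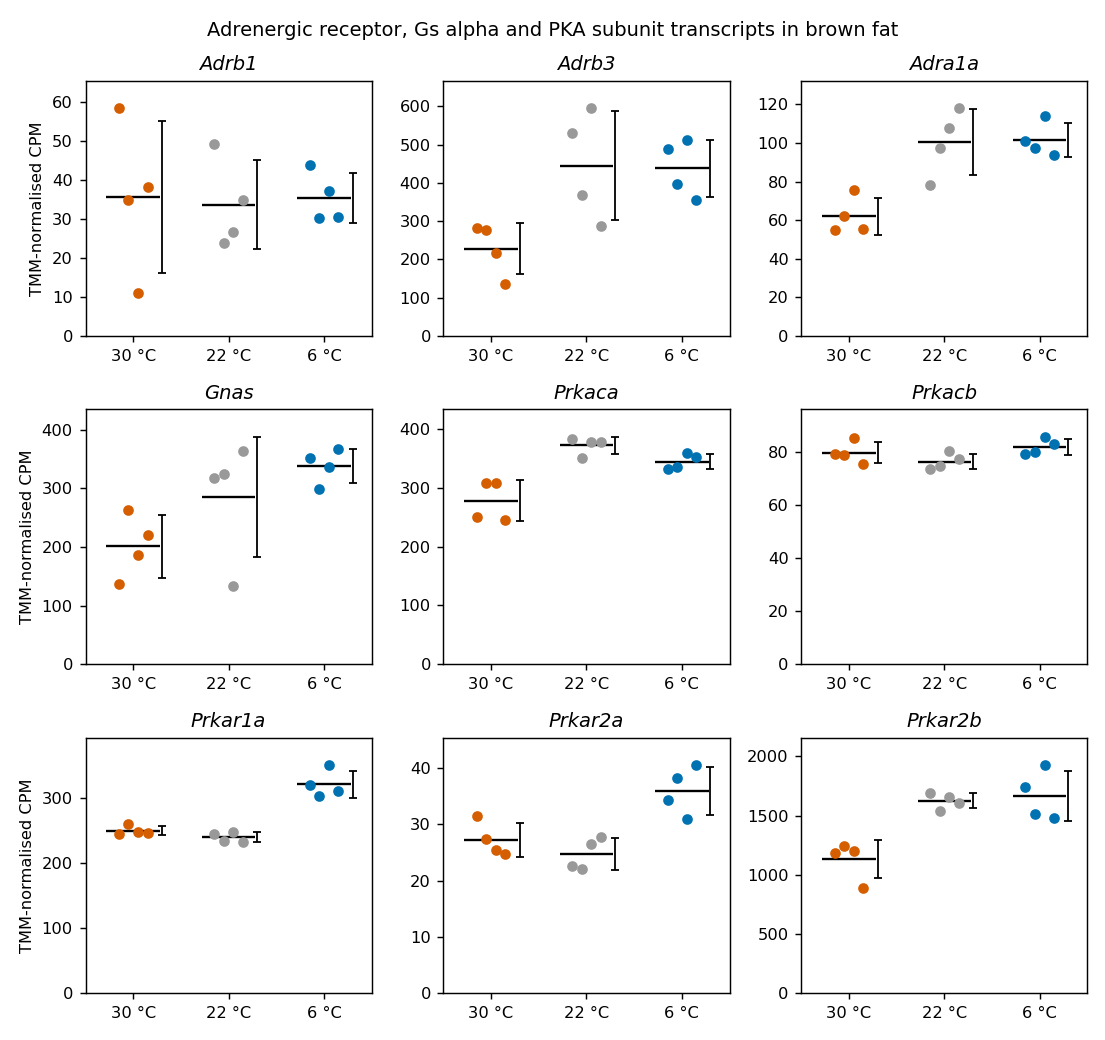
TMM-normalised CPM of each gene in each of the 12 libraries, by temperature. Points are mice in the order of their names, lines are group means and bars are SDs (n = 4). The 22 and 6 °C mice lie above all 30 °C mice for Adrb3, Adra1a, Prkaca and Prkar2b, and the 6 °C mice lie above all 22 °C mice for Prkar1a and Prkar2a.

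Adrb3 (ENSMUSG00000031489, chr8:27225776-27250616, minus strand, GRCm38) encodes the beta3 receptor. In CPM it was 282, 276, 218 and 137 at 30 °C in mice 1, 2, A and B, 530, 368, 595 and 288 at 22 °C in mice 1 to 4, and 488, 398, 512 and 355 at 6 °C. Every 22 and 6 °C mouse lay above every 30 °C mouse, while the 22 and 6 °C mice overlapped. The mean was 228 ± 67.3 CPM at 30 °C, 445 ± 142 at 22 °C and 438 ± 73.7 at 6 °C (SD, n = 4). Adrb3 rose 1.95-fold at 22 °C against 30 °C (log2 0.97, SE 0.26, adjusted p = 0.0113) and 1.92-fold at 6 °C against 30 °C (log2 0.94, SE 0.26, adjusted p = 0.00998). Between 22 and 6 °C the log2 difference was -0.02, with a 95% interval of -0.60 to 0.55. Without mice A and B, which hold the 2 lowest values, neither Adrb3 call remained (log2 0.67, adjusted p = 0.097 at 22 °C, and log2 0.66, adjusted p = 0.0784 at 6 °C). Of its exon bases, 24.9% lie under Gm45470 on the opposite strand, and reads from the 2 strands cannot be told apart here.

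Adra1a (ENSMUSG00000045875, chr14:66635251-66771168, plus strand) encodes the alpha1A receptor, which couples to Gq. Its CPM was 54.8, 62.1, 75.6 and 55.7 at 30 °C, 78.4, 97.7, 108 and 118 at 22 °C, and 101, 97.3, 114 and 94.0 at 6 °C. All 22 and 6 °C mice again lay above all 30 °C mice. Adra1a rose 1.62-fold at 22 °C against 30 °C (log2 0.70, SE 0.13, adjusted p = 0.000828) and 1.64-fold at 6 °C against 30 °C (log2 0.71, SE 0.13, adjusted p = 0.000462). The step from 22 to 6 °C gave a log2 difference of 0.01, with a 95% interval of -0.26 to 0.29. The colder step was smaller than the warmer by 0.68 on the log2 scale (difference -0.68, SE 0.22, adjusted p = 0.033). That difference missed the threshold when any one of 30 °C mouse B, 22 °C mice 2, 3 or 4, or 6 °C mice 1, 2 or 4 was left out, with adjusted p up to 0.126. Both Adra1a calls against 30 °C remained without mice A and B (log2 0.78, adjusted p = 0.00262 at 22 °C, and log2 0.81, adjusted p = 0.00109 at 6 °C).

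Adrb1 (ENSMUSG00000035283, chr19:56722199-56733113, plus strand) encodes the beta1 receptor. Its CPM was 58.3, 34.7, 11 and 38.2 at 30 °C, 49.2, 23.8, 26.6 and 34.9 at 22 °C, and 43.7, 30.1, 37.1 and 30.4 at 6 °C. The 30 °C mice spanned the whole range of the others, from the lowest value in mouse A to the highest in mouse 1. Means were 35.6 ± 19.4, 33.6 ± 11.4 and 35.3 ± 6.44 CPM (SD, n = 4), and no comparison was called (adjusted p from 0.892 to 0.988). The 95% interval of the log2 difference was -0.92 to 0.91 at 6 °C against 30 °C, so changes of up to that size remain possible.

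Of 5 further adrenergic receptor genes described here, Adra1d was above 1 CPM on average in every group. Adra1d, another alpha1 receptor, fell in each step, from 24.4 ± 3.74 CPM at 30 °C to 18 ± 2.15 at 22 °C and 8.04 ± 1.72 at 6 °C (SD, n = 4). Its log2 fold change was -0.44 at 22 °C against 30 °C (SE 0.15, adjusted p = 0.0286) and -1.17 at 6 °C against 22 °C (SE 0.15, adjusted p = 0.000163). The first of these missed the threshold without 30 °C mouse 1 (adjusted p = 0.0791), 30 °C mouse 2 (0.0759) or 22 °C mouse 3 (0.0775). Adra1b and Adra2a averaged 0.204 and 0.224 CPM and were not tested. Adra2c was called once, higher at 22 °C (0.744 ± 0.428 CPM) than at 30 °C (0.275 ± 0.161 CPM, log2 1.49, adjusted p = 0.0225). That call was lost without 22 °C mouse 3 (log2 1.09, adjusted p = 0.114), 22 °C mouse 4 (0.0529), 30 °C mouse 2 (0.0593), mouse B (0.0714) or mice A and B together (0.0718). Adra2b was called once, lower at 6 °C (0.397 ± 0.122 CPM) than at 22 °C (0.7 ± 0.162 CPM, log2 -0.87, adjusted p = 0.049). That call was lost in 14 of the alternatives, among them leaving out any 1 of the 22 °C mice, 6 °C mice 1, 2 and 3, or 30 °C mice 2 and A (adjusted p from 0.0502 to 0.125), and the fit with the mean log2 CPM of the skeletal muscle markers as a covariate (0.181).

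As a share of the 8 adrenergic receptor transcripts described here, each divided by exon length, Adrb3 made up 68% ± 6.9 at 30 °C, 79.6% ± 6.22 at 22 °C and 82.8% ± 1.72 at 6 °C (SD, n = 4). Adrb1 made up 10.8% ± 5.57, 6.29% ± 2.22 and 6.68% ± 0.606, and Adra1a 7.6% ± 2.27, 7.53% ± 2.86 and 7.51% ± 0.681. Adra1d went from 13.4% ± 1.91 to 6.19% ± 2.03 and 2.8% ± 0.975. These shares were not tested, and they describe the tissue as a whole and not the adipocyte.

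**Figure D3:**
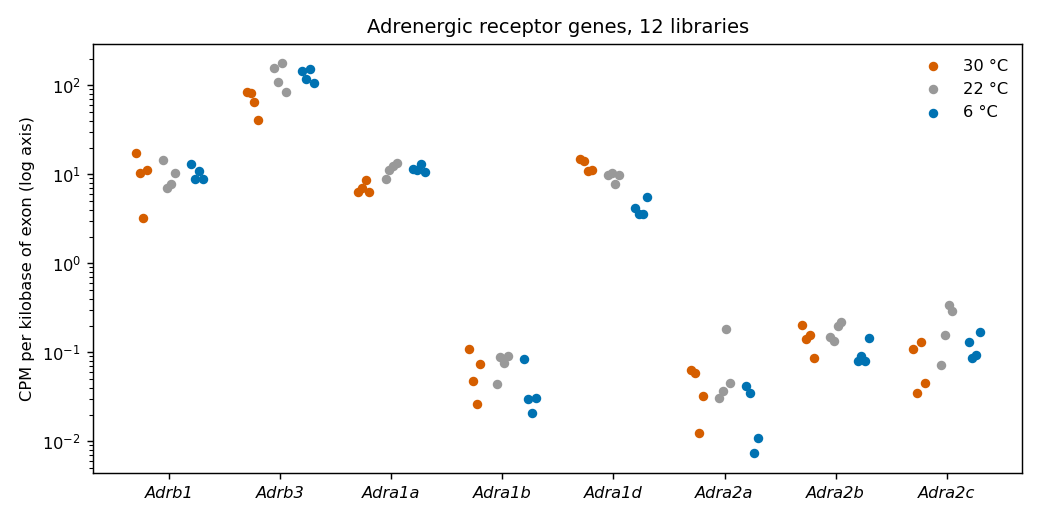
CPM per kilobase of exon of 8 adrenergic receptor genes in the 12 libraries, on a log axis, coloured by temperature. Adrb3 is the highest in every library, Adra1d is lowest at 6 °C, and Adra1b, Adra2a, Adra2b and Adra2c lie far below the other receptors.

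Gnas (ENSMUSG00000027523, chr2:174284320-174346744, plus strand) encodes Gs alpha, which carries the signal from beta receptors to adenylyl cyclase. Its CPM was 137, 264, 186 and 220 at 30 °C, 318, 325, 134 and 364 at 22 °C, and 352, 299, 337 and 367 at 6 °C. The 6 °C mice lay above all 30 °C mice, and 1 mouse at 22 °C, number 3, lay below every mouse of the other groups. Gnas rose 1.68-fold at 6 °C against 30 °C (log2 0.75, SE 0.28, adjusted p = 0.0394). At 22 °C against 30 °C the log2 difference was 0.50 (SE 0.28, adjusted p = 0.171). Without 22 °C mouse 3, the most deeply sequenced library, that value was 0.72 (adjusted p = 0.00716) and the 6 °C call remained (adjusted p = 0.0027). The 6 °C call missed the threshold without 30 °C mouse 1 (log2 0.60, adjusted p = 0.0952), without mouse A (0.0828), mouse B (0.0658) or both (log2 0.77, adjusted p = 0.156), and without 6 °C mouse 1, 3 or 4 (adjusted p from 0.0678 to 0.0809). Over all alternatives, these among them, the 6 °C call was lost in 12 and kept in 12. The Gnas locus makes several proteins from different promoters, and counts per gene do not separate them. Of its exon bases, 22.0% lie under Nespas and Gm20721 on the opposite strand.

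Prkaca (ENSMUSG00000005469, chr8:83972993-83996443, plus strand) encodes the catalytic alpha subunit. Its CPM was 250, 308, 307 and 245 at 30 °C, 382, 351, 378 and 377 at 22 °C, and 332, 335, 358 and 352 at 6 °C. The 30 °C mice were the 4 lowest, and the 6 °C mice lay between them and all but 1 of the 22 °C mice. With TMM scaling, Prkaca rose 1.34-fold at 22 °C against 30 °C (log2 0.42, SE 0.09, adjusted p = 0.00149) and 1.24-fold at 6 °C against 30 °C (log2 0.31, SE 0.09, adjusted p = 0.00754). Scaled by total counts alone, its log2 difference was 0.17 at 22 °C (adjusted p = 0.0753) and -0.0022 at 6 °C (adjusted p = 0.981). From 22 to 6 °C the log2 difference was -0.11 (adjusted p = 0.334), and the steps differed by -0.54 (SE 0.15, adjusted p = 0.0158). Without mice A and B both calls against 30 °C remained (log2 0.41, adjusted p = 0.00833 at 22 °C, and log2 0.31, adjusted p = 0.0206 at 6 °C).

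Prkacb (ENSMUSG00000005034, chr3:146729574-146812990, minus strand) encodes the catalytic beta subunit. Its CPM was 79.4, 78.7, 85.3 and 75.6 at 30 °C, 73.6, 74.6, 80.2 and 77.2 at 22 °C, and 79.3, 79.9, 85.7 and 83.0 at 6 °C. The groups overlapped, and the gene was not called in any comparison (adjusted p from 0.21 to 0.589). Its spread was small, so the 95% interval of the log2 difference at 6 °C against 30 °C ran only from -0.09 to 0.17. Scaled by total counts alone it was called lower at 6 °C (log2 -0.28, adjusted p = 0.00123) and at 22 °C (log2 -0.32, adjusted p = 0.000759) than at 30 °C.

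Prkar2b (ENSMUSG00000002997, chr12:31958476-32061296, minus strand) encodes the type II beta regulatory subunit. Its CPM was 1185, 1246, 1196 and 891 at 30 °C, 1693, 1541, 1658 and 1610 at 22 °C, and 1740, 1514, 1925 and 1480 at 6 °C. Every 22 and 6 °C mouse was above every 30 °C mouse, with mouse B the lowest. Prkar2b rose 1.44-fold at 22 °C against 30 °C (log2 0.53, SE 0.12, adjusted p = 0.00264) and 1.47-fold at 6 °C against 30 °C (log2 0.56, SE 0.12, adjusted p = 0.00125). Both calls remained without mice A and B (log2 0.42, adjusted p = 0.0163, and log2 0.46, adjusted p = 0.0062). The step from 22 to 6 °C gave a log2 difference of 0.03, with a 95% interval of -0.22 to 0.29. The difference of the steps was -0.49 (SE 0.20, adjusted p = 0.0809).

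Prkar1a (ENSMUSG00000020612, chr11:109649405-109669656, plus strand) encodes the type I alpha regulatory subunit. Of its 6 promoters, 2 hold the full response element printed above, and they overlap at 1 copy. Whether that element bears on the values below was not tested. Its CPM was 245, 259, 248 and 246 at 30 °C, 245, 233, 248 and 232 at 22 °C, and 320, 303, 350 and 311 at 6 °C. The 6 °C mice were the 4 highest, while the 30 and 22 °C mice overlapped. Prkar1a rose 1.34-fold at 6 °C against 22 °C (log2 0.42, SE 0.07, adjusted p = 0.000469) and 1.29-fold at 6 °C against 30 °C (log2 0.36, SE 0.07, adjusted p = 0.000424). At 22 °C against 30 °C its log2 difference was -0.06, with a 95% interval of -0.20 to 0.08. The colder step was larger than the warmer by 0.48 on the log2 scale (SE 0.11, adjusted p = 0.00789). With total counts alone the difference at 6 °C against 30 °C was 0.05 (adjusted p = 0.525), and Prkar1a was called lower at 22 °C than at 30 °C (log2 -0.32, adjusted p = 0.00105). Without mice A and B, the log2 difference at 6 °C against 30 °C was 0.36 (adjusted p = 0.00467).

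Prkar2a (ENSMUSG00000032601, chr9:108689314-108750436, plus strand) encodes the type II alpha regulatory subunit. Its CPM was 31.5, 27.3, 25.5 and 24.8 at 30 °C, 22.5, 22.1, 26.5 and 27.7 at 22 °C, and 34.3, 38.2, 30.9 and 40.5 at 6 °C. The 6 °C mice were above all 22 °C mice, and 1 of them, mouse 3, was below 30 °C mouse 1. Prkar2a rose 1.45-fold at 6 °C against 22 °C (log2 0.54, SE 0.11, adjusted p = 0.00264) and 1.32-fold at 6 °C against 30 °C (log2 0.40, SE 0.11, adjusted p = 0.00726). At 22 °C against 30 °C the log2 difference was -0.14 (adjusted p = 0.329), and the steps differed by 0.68 (SE 0.19, adjusted p = 0.0185). The call at 6 °C against 30 °C was lost without mice A and B (log2 0.30, adjusted p = 0.0862) and with total counts alone (log2 0.09, adjusted p = 0.531). The difference of the steps missed the threshold without 22 °C mouse 1 (log2 0.59, adjusted p = 0.0617) or 22 °C mouse 2 (log2 0.58, adjusted p = 0.0676).

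Ratios between 2 genes of the same library do not depend on the scaling between libraries. Of these, 5 were compared between each pair of temperatures by exact two-sided permutation tests, which with 4 mice against 4 cannot give a p below 0.0286. After Benjamini-Hochberg adjustment over the 15 tests none was under 0.05, and the smallest adjusted p was 0.0714. With this floor, a ratio whose groups were fully apart could not pass unless most of the 15 tests also reached the smallest p. The lack of a call therefore does not show that a ratio was unchanged. Values are ratios of counts per kilobase of exon, with p-values before and after adjustment.

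Prkacb to Prkaca was 0.0899, 0.0725, 0.0790 and 0.0875 at 30 °C, 0.0546, 0.0602, 0.0601 and 0.0580 at 22 °C, and 0.0678, 0.0676, 0.0679 and 0.0669 at 6 °C. The 3 groups did not overlap, with 30 °C highest and 22 °C lowest. The mean log2 ratio differed by -0.49 at 22 °C against 30 °C, by -0.28 at 6 °C against 30 °C and by 0.21 at 6 °C against 22 °C (exact permutation p = 0.0286 and adjusted p = 0.0714 for each). Prkaca made up 92.4% ± 0.683 of the catalytic transcripts per kilobase at 30 °C, 94.5% ± 0.233 at 22 °C and 93.7% ± 0.038 at 6 °C (SD, n = 4).

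Prkar1a to Prkar2b was 0.174, 0.175, 0.175 and 0.233 at 30 °C, 0.122, 0.128, 0.126 and 0.122 at 22 °C, and 0.155, 0.169, 0.153 and 0.178 at 6 °C. All 22 °C mice were below all others, and the 30 and 6 °C mice overlapped. The mean log2 ratio differed by -0.59 at 22 °C against 30 °C and by 0.39 at 6 °C against 22 °C (exact permutation p = 0.0286, adjusted p = 0.0714 for both). At 6 °C against 30 °C it differed by -0.20 (exact permutation p = 0.114, adjusted p = 0.214). Prkar2a to Prkar2b was likewise lowest at 22 °C, with a mean of 0.0140 ± 0.00187 at 30 °C, 0.00871 ± 0.000988 at 22 °C and 0.0127 ± 0.00296 at 6 °C (SD, n = 4). Its mean log2 ratio differed by -0.68 at 22 °C against 30 °C (exact permutation p = 0.0286, adjusted p = 0.0714) and by 0.51 at 6 °C against 22 °C (exact permutation p = 0.0571, adjusted p = 0.122).

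Of the regulatory transcripts per kilobase, Prkar2b made up 83.1% ± 2.06 at 30 °C, 88.2% ± 0.218 at 22 °C and 85% ± 1.04 at 6 °C (SD, n = 4). Prkar1a made up 15.7% ± 1.98, 11% ± 0.221 and 13.9% ± 0.809, and Prkar2a 1.16% ± 0.136, 0.768% ± 0.087 and 1.07% ± 0.239. The summed catalytic transcripts were 0.326 ± 0.0298 of the summed regulatory transcripts at 30 °C, 0.314 ± 0.00545 at 22 °C and 0.278 ± 0.0294 at 6 °C, which was not tested. The ranges at 30 °C (0.284 to 0.351) and at 6 °C (0.251 to 0.312) overlapped.

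Adrb1 to Adrb3 was 0.207, 0.125, 0.0506 and 0.278 at 30 °C, 0.0926, 0.0645, 0.0446 and 0.121 at 22 °C, and 0.0894, 0.0755, 0.0724 and 0.0854 at 6 °C. Mouse A at 30 °C fell among the 22 °C mice, and the mean log2 ratio differed by -0.88 at 22 °C against 30 °C (exact permutation p = 0.2, adjusted p = 0.333). At 6 °C against 30 °C it differed by -0.78 (exact permutation p = 0.257, adjusted p = 0.386). For Adra1a to Adrb3 the differences were -0.27, -0.26 and 0.01 (exact permutation p = 0.543, 0.371 and 1, adjusted p = 0.626, 0.506 and 1), at 22 °C against 30 °C, 6 °C against 30 °C and 6 °C against 22 °C.

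**Figure D4:**
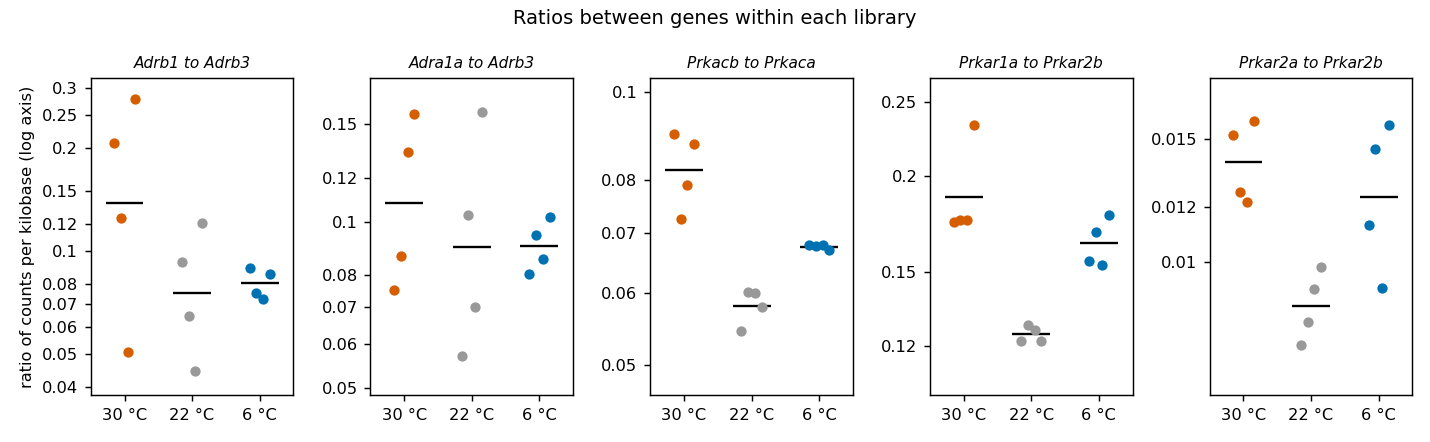
Ratios of counts per kilobase between pairs of genes within each library, by temperature, each panel on its own log axis. Points are mice and lines are geometric means. Prkacb to Prkaca, Prkar1a to Prkar2b and Prkar2a to Prkar2b have their lowest mean at 22 °C, and the Adrb1 to Adrb3 and Adra1a to Adrb3 groups overlap.

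The scaling between libraries matters for changes of this size. TMM factors were from 0.87 to 1.23, and using total counts alone in place of TMM shifted the median log2 fold change of all tested genes by -0.32 at 6 °C against 30 °C, by -0.26 at 22 °C against 30 °C and by -0.06 at 6 °C against 22 °C. Under total counts alone, 4 of the 9 genes were called at 6 °C against 30 °C, 3 higher (Adrb3, Adra1a and Prkar2b) and Prkacb lower. The shares of all genes called that are given above were found with TMM, so they are no background for this count. The rise of Prkar1a and Prkar2a at 6 °C against 22 °C was called under each of the 4 scalings.

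**Figure D5:**
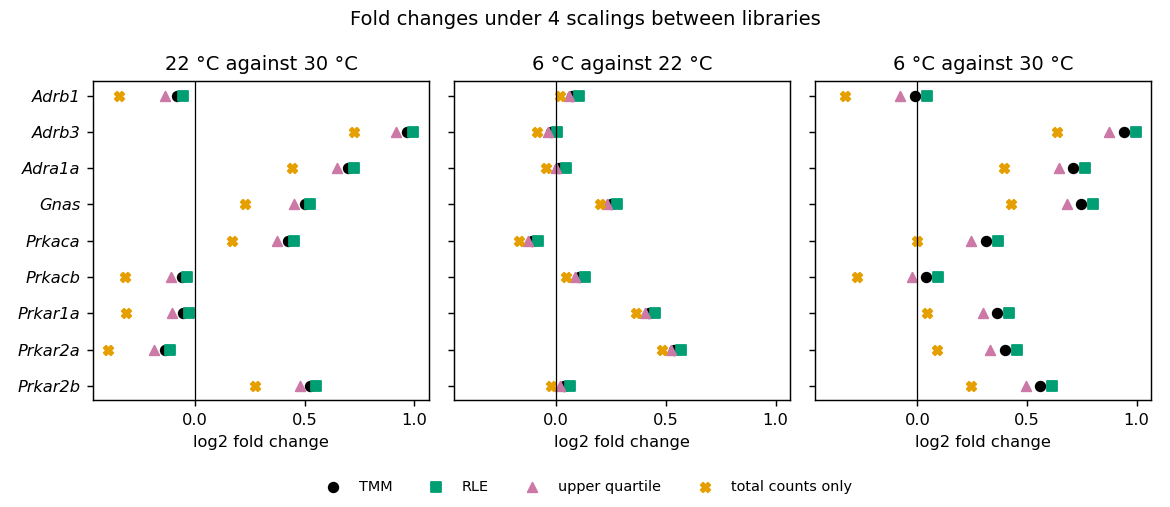
Log2 fold changes of the 9 genes with library sizes scaled by TMM, RLE, upper quartile or total counts only, 1 panel per comparison. Total counts lower every value against 30 °C, and bring Prkaca at 6 °C to -0.0022 and Prkacb to -0.28. Values at 6 °C against 22 °C lie close together.

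Across the 12 libraries the log2 CPM of Prkar2b was correlated with that of Adrb3 (Pearson r = 0.92), Prkaca (0.87) and Adra1a (0.85), and Prkaca with Adra1a (0.85). Prkar2a and Prkar1a had r = 0.74. These describe libraries that share temperatures and scaling. Among 9900 genes averaging 5 CPM or more, the 3 most like each gene (1 for Gnas, Adrb1 and Prkacb) are given in descending r. They were Mtm1 (0.935), Skp1a (0.923) and Zfp423 (0.922) for Adrb3, and Ap4b1 (0.953), Psmc1 (0.941) and Psma2 (0.941) for Adra1a. Prkar2b was most like Lmf1 (0.964), Mme (0.959) and Bckdhb (0.957). For Prkaca they were Plin1 (0.948), which encodes the lipid droplet coat protein perilipin 1, Tmem250-ps (0.945) and Alg1 (0.938). Prkar1a was most like Mef2d (0.976), Cxcl12 (0.973) and Tollip (0.968), and Prkar2a like Odc1 (0.94), Parva (0.93) and Mpdz (0.907). Gnas, Adrb1 and Prkacb had Exosc3 (0.892), Tob1 (0.936) and Nudcd1 (0.875) first.

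The rest of the pathway was read from 13 lists, counting genes called after adjustment over all tested genes. Each count at 6 °C against 30 °C stands beside 25.3% of all tested genes called higher, 31.5% called lower and a median log2 fold change of -0.11. Among 5 further protein kinase A genes and inhibitors, none rose and 3 fell at 6 °C against 30 °C (median log2 -0.52). Prkar1b, the type I beta regulatory subunit, fell by 0.52 on the log2 scale (adjusted p = 0.0122), and Prkx, a related catalytic kinase, by 0.43 (adjusted p = 0.0106). Both calls were lost without mice A and B (adjusted p = 0.114 and 0.0928). The third, the inhibitor Pkia, was named after its values were seen, and fell by 1.91 (SE 0.61, adjusted p = 0.0218). That call was lost without 30 °C mouse 1 (log2 -1.33, adjusted p = 0.0646), 6 °C mouse 2 (0.0604) or 6 °C mouse 3 (0.0516). It was also lost with no filter on low counts (0.0503). The highest Pkia value, 50.7 CPM, was in 30 °C mouse 1, the library with the most skeletal muscle marker counts. The Pkia call remained with the mean log2 CPM of the skeletal muscle markers as a covariate. Which cells the Pkia counts came from was not tested.

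Of 6 receptor kinases and arrestins, which switch off active receptors, 2 rose and 3 fell at 6 °C against 30 °C (median log2 -0.20). Grk3 rose in each step, from 122 ± 24 CPM at 30 °C to 196 ± 28.9 at 22 °C and 300 ± 37.5 at 6 °C (SD, n = 4, log2 1.3, SE 0.15, adjusted p = 9.8e-06 at 6 °C against 30 °C). Grk5 rose by a log2 of 0.55 (adjusted p = 0.0012). Arrb2 fell by 1.26 (adjusted p = 0.00118), Arrb1 by 0.46 (adjusted p = 0.0115) and Grk6 by 0.43 (adjusted p = 0.000291). Arrb2 was 18.2 and 16.9 CPM in 30 °C mice 1 and 2, but 33.7 and 35.5 in mice A and B, with a mean of 10.9 at 6 °C. The size of its fall thus rests in part on mice A and B, though its call remained without them. The Arrb1 call was lost without mice A and B (log2 -0.30, adjusted p = 0.122). Of 20 other G protein subunits, 7 rose and 6 fell (median log2 -0.01). Gnao1 rose by a log2 of 1.20 (adjusted p = 7.81e-06), and Gng7 fell by 1.97 (adjusted p = 6.46e-07), with a log2 fold change of -1.88 between 22 and 6 °C.

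Of 9 adenylyl cyclases tested, which make cyclic AMP, 2 rose and 2 fell at 6 °C against 30 °C (median log2 -0.41). Adcy3 rose from 49.5 ± 2.7 CPM at 30 °C to 76.5 ± 12.5 at 22 °C and 350 ± 49.2 at 6 °C (SD, n = 4, log2 2.82, SE 0.13, adjusted p = 1.52e-08). Adcy10, the soluble cyclase, rose from 0.456 ± 0.32 CPM to 6.56 ± 3.09 and 40.1 ± 4.87 (log2 6.45, SE 0.44, adjusted p = 7.76e-07), and its log2 fold change was 7.04 without 30 °C mouse 1. Adcy7 fell by 1.39 on the log2 scale (adjusted p = 0.00575) and Adcy4 by 0.42 (adjusted p = 0.0309). Without mice A and B neither was called (Adcy7 log2 -0.59, adjusted p = 0.0862, Adcy4 log2 -0.23, adjusted p = 0.309). The Adcy4 call was also lost without any 1 of 30 °C mice 2, A and B and 6 °C mice 2, 3 and 4 (adjusted p from 0.0512 to 0.0983). Of 15 phosphodiesterases tested, which break cyclic AMP down, 7 rose and 5 fell (median log2 0.46). Pde7b rose by a log2 of 2.36 (adjusted p = 3.86e-06) and Pde4d by 1.32 (adjusted p = 3.26e-06), while Pde11a fell by 2.28 (adjusted p = 0.000206).

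Of 15 anchoring proteins tested, which hold the regulatory subunits at sites in the cell, 4 rose and 6 fell at 6 °C against 30 °C (median log2 -0.22). Opa1, which binds protein kinase A and is known for fusing mitochondrial inner membranes, rose by a log2 of 0.79 (adjusted p = 1.5e-05), and Akap7 by 0.62 (adjusted p = 0.00022). Map2 fell by 1.41 (adjusted p = 0.000107) and Akap8 by 0.40 (adjusted p = 0.000166). Among 18 CREB family factors and other effectors, 7 rose and 6 fell (median log2 0.12). The falls of the smallest p were Creb3l1, by 1.47 (adjusted p = 4.82e-06), and Map2k6, by 1.83 (adjusted p = 3.48e-05). The rise of the smallest p was Map2k3, by a log2 of 0.47 (adjusted p = 0.000175), which was not called with total counts alone (log2 0.15, adjusted p = 0.142). Of the 2 cyclic AMP exchange factors, Rapgef3 fell by 0.66 (adjusted p = 0.000276) and Rapgef4 rose by a log2 of 0.79 (adjusted p = 0.00156).

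Of 5 genes for lipid droplet substrates of protein kinase A and their partners, 3 rose at 6 °C against 30 °C and none fell (median log2 0.30). Abhd5, the activator released from perilipin, rose by a log2 of 1.18 (adjusted p = 0.00017). Lipe, the hormone-sensitive lipase, rose by 0.34 (adjusted p = 0.00866) and Plin1 by 0.30 (adjusted p = 0.0115), and with total counts alone these were 0.03 and -0.02. Both calls were lost without mice A and B (adjusted p = 0.0724 and 0.0552), and that of Plin1 with the mean log2 CPM of the skeletal muscle markers as a covariate (adjusted p = 0.0578). None of the 5 was called between 22 and 6 °C. Of 14 transcripts known to be induced by cyclic AMP, 3 rose and none fell (median log2 0.16), a smaller share than that of all genes in each direction. The 3 were Ucp1 (log2 2.83, adjusted p = 2.01e-05), the uncoupling protein, Dio2 (log2 2.87, adjusted p = 0.000977), which activates thyroid hormone, and Ppargc1a (log2 1.19, adjusted p = 0.00104), a coactivator of mitochondrial genes.

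Of 13 genes of the alpha1 receptor arm, 5 rose and 4 fell at 6 °C against 30 °C (median log2 -0.03). Prkce, a protein kinase C, rose by a log2 of 1.73 (adjusted p = 1.88e-05) and Itpr1, a calcium release channel, by 0.78 (adjusted p = 0.000156), while Itpr2 fell by 0.56 (log2 -0.56, adjusted p = 0.000691). Of 11 other receptors coupled to the stimulatory G protein and tested, none rose and 5 fell (median log2 -0.50). Adcyap1r1 fell by 2.28 (adjusted p = 3.75e-06), and Sctr, the secretin receptor, fell by 1.86 (adjusted p = 7.52e-07). Maob, a monoamine oxidase that breaks down catecholamines, was 118 ± 15.4 CPM at 30 °C, 127 ± 3.09 at 22 °C and 128 ± 10.8 at 6 °C (SD, n = 4) and was not called (log2 0.11, adjusted p = 0.337 at 6 °C against 30 °C). Th and Dbh, which make noradrenaline in nerves, averaged 0.0345 and 0.00437 CPM and were not tested.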

How the data were processed

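Interscapular brown fat RNA of 12 mice was sequenced. The authors deposited 1 count table with raw reads per gene. Per the submitters' processing notes, the builds were GRCm38 and mm10, and the tools edgeR 3.14.0, STAR 2.4.2a and FastQC 0.10.1, with no role given. Counting program, annotation release and strandedness: not given in the sources used here. Gene names, 1-based positions and exon lengths are those of GENCODE M21 (GRCm38), matched to 96.6% of identifiers. Of the columns, 10 were matched to a mouse by name, and 2 to 30 °C by their letter.

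Counts of the 14870 genes kept by filterByExpr were scaled by TMM and fitted to 1 factor of 3 temperatures over all 12 libraries with edgeR 4.0.16 (R 4.3.3, glmQLFit with robust estimation). Contrasts were tested two-sided by glmQLFTest, with Benjamini-Hochberg adjustment across the genes tested. SE is the log2 fold change over the root of its F statistic, and 95% intervals use the t distribution with the test's degrees of freedom. CPM are counts per 1000000 after TMM. Any 2 libraries of a group differed beyond counting noise (chi-square at least 22.8 times its degrees of freedom). At the smallest total, 1 CPM is 18.3 counts. P-values measure the spread between these mice only.

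The genes and lists were chosen with earlier results of these data known. Of the genes listed, 2 are not reported here and are left out of the lists' counts and of the receptor shares. Besides the 9 genes, the text describes some of the genes picked by rule from each list: in each pairwise comparison up to 2 genes of the smallest p in each direction. Not every gene so picked is described. Maob comes from a list with no call and was picked for its highest mean count. Adra1b, Adra2a, Th and Dbh were not tested and are given by their mean only. The text also names the 3 genes with the highest r to each of the 9, or the first alone for Gnas, Adrb1 and Prkacb, leaving out clone and predicted names. Alternatives were other scalings (RLE, upper quartile, total counts), filters, tests (DESeq2 1.42.0, limma 3.58.1 voom), fits without robust estimation or with only the groups compared, a muscle marker covariate, a replicate block and leaving out each library. Leaving out mice A and B together was added after seeing the data. The fit was tested on simulated data. RefSeq promoters of GRCm38.p6 were searched as described.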

Additional observations from a re-analysis of the deposited data

Results flagged for a closer look

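In the 22 °C group, Prkaca was 351 CPM in mouse 2, against 377 to 382 in the other 3 mice. The gap to the nearest mouse was 0.851 of the group's whole range, above the critical value of 0.829 for 4 samples. It was the only one flagged among the 27 groups of 4 libraries examined (9 genes at 3 temperatures), where chance flags about 1 in 20.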

How the results depend on the processing

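Over all alternatives, 196 of 216 values of the 9 genes at 6 °C against 30 °C kept their side of the threshold, as did 208 of 216 at 22 °C against 30 °C, 216 of 216 at 6 °C against 22 °C and 191 of 207 for the difference of the steps. Direction was kept by 202, 212, 197 and 203 of these values, and the changes of direction were in values not called in the report, with the exception of Prkaca under total counts. At 6 °C against 30 °C, 4 of the 9 genes rather than 7 were called with total counts only (3 higher and 1 lower), 4 without mice A and B together (both left out after seeing the data), and 4 with the replicate block. Over all genes, 8444 were called in the 12 libraries, 6570 without mice A and B and 5683 with the replicate block. The shares of all genes called in the report were found with TMM and are no background for the count under total counts. Leaving out 1 library gave 6 to 7 calls in that comparison, and 2 to 5 for the difference of the steps (2 without 22 °C mouse 2, 5 without 6 °C mouse 3). Scaled by total counts only, some values against 30 °C turned sign. Those called under TMM or total counts are listed as log2 fold changes, and sign changes of values not called are left out. At 6 °C they were Prkaca (-0.0022), Prkacb (-0.28), Akap11 (-0.27), Atf2 (-0.047), Gna11 (-0.12), Gnaq (-0.0307), Maob (-0.21) and Plin1 (-0.0182). At 22 °C they were Akap8l (-0.18), Gng12 (-0.15) and Plcb3 (-0.0504). Scaling by total counts only shifts all genes, as the report gives. Without division by exon length, the ratio of catalytic to regulatory transcripts was 0.255 at 30 °C, 0.237 at 22 °C and 0.213 at 6 °C.

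The mouse numbers only name mice. In the 8 same-numbered pairs across groups, deviations from the group means correlated from -0.15 to 0.23, and in the 24 other pairs from -0.36 to 0.38, and 1 of 10 numbered libraries correlated best with its own number. The replicate block, over those 10 libraries, called 2 of the 9 genes at 22 °C against 30 °C and 2 for the difference of the steps, and turned Plcb2 at 6 °C against 30 °C to 0.0103. Over all genes it called 3245 at 22 °C against 30 °C (4454 in the same 10 libraries without the block, 6634 in all 12) and 2468 for the difference of the steps (3376 and 4353). With 4 mice a group, Adrb1 and Gnas had the widest intervals of the 9 genes.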
